A study of Mus musculus with 36 samples.

Results

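The lymphocyte and immune checkpoint genes described here are 32 of the 53379 genes counted, chosen by symbol as genes of T cells, NK cells and B cells and as checkpoint receptors with a ligand. They were followed in formalin-fixed, paraffin-embedded tissue of mice that model the translocation form of kidney cancer, in which a Cre recombinase removes a stop cassette (LSL) and so switches on the ASPSCR1-TFE3 fusion. In the adult model the Sglt2-Cre transgene, active in the renal proximal tubule, drove the fusion in 6 Sglt2-Cre; ASPSCR1-TFE3 LSL/+ mice, which gave kidney tumors (11 libraries from 6 mice), retro-orbital tumors (4 mice), brain tumors (3 mice) and non-transformed kidney (4 mice). The controls were 6 kidney libraries of 3 Sglt2-Cre mice without the fusion. In the fetal model, Pax8-Cre, active in the developing nephron, drove the fusion in 5 Pax8-Cre; ASPSCR1-TFE3 LSL/+ fetuses, whose kidneys the labels call dysmorphic, and the 3 control fetal kidneys are labelled Pax8-Cre, although the text of the deposit gives them as carrying either Pax8-Cre or ASPSCR1-TFE3 LSL/+. Adult mice of the tumor groups are numbered 1 to 6, and tissues with the same number came from the same mouse. The labels give no ages.

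Libraries held 80205573 to 121415057 counts. Libraries of the same mouse and tissue were summed, which gave 28 samples. Levels are CPM, the counts of a gene relative to the TMM-scaled library size, and a gene was called changed when its edgeR adjusted p, taken over all genes tested, was under 0.05. The proximal tubule markers fixed as a list summed to 12328 to 12977 CPM in control kidneys. In tumors of the kidney the sum was 652 to 9197 CPM, in retro-orbital ones 123 to 1177 CPM and in those of the brain 301 to 750 CPM. The fusion response genes summed to 3067 to 7940 CPM in kidney tumors, to 3385 to 5189 CPM in those behind the eye and to 3072 to 4719 CPM in those of the brain, against 98.4 to 124.7 CPM in control kidneys. Most of the sum in kidney tumors was Gpnmb, with a mean of 5062 CPM against 2.11 CPM in control kidneys. Of the 5 genes in this list, 3 were called higher in kidney tumors than in controls, and 1 had a fold change below 0. The neuron and glia markers summed to 129 to 1753 CPM in brain tumors and to no more than 116 CPM in any kidney or retro-orbital tumor. The kidney tumor of mouse 1 stood apart from the other kidney tumors, by Dixon's criterion, in Cd8a, Pdcd1, Foxp3, Ms4a1 and Ighm, and values without mouse 1 are given where they change a call. Y-linked transcripts marked mice 1 and 5 as male and the other adult animals as female. Among the fetuses, dysmorphic kidneys 1, 2 and 3 and control kidney 1 were marked as male and the others as female.

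T cells recognise antigen through a receptor held at the surface by the CD3 chains, with CD4 or CD8 as coreceptor, and need a second signal through CD28 or a related receptor. Checkpoint receptors such as CTLA-4 and PD-1 restrain that signal, and PD-L1, encoded by Cd274, is the ligand that engages PD-1 on the T cell. Cytotoxic T cells and NK cells kill through granules of perforin and granzymes, B cells signal through CD79 and surface immunoglobulin, and plasma cells secrete antibody joined by the J chain. In bulk tissue, fewer cells of a type and less RNA per cell cannot be told apart. PD-L1 and TIM-3 (Havcr2) are also made by macrophages, dendritic cells and, for PD-L1, by endothelial and tumor cells, so these transcripts need not come from lymphocytes.

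Of the 5 members called in any comparison, Cd274, Gzma, Cd4, Cd79a and Cd5, the first 3 rose together in retro-orbital tumors. Cd274 lies on chromosome 19 at 29367455 to 29388095 on the plus strand, Gzma on chromosome 13 at 113093825 to 113100981 on the minus strand, and Cd4 on chromosome 6 at 124864692 to 124888221 on the minus strand (GENCODE M21, build GRCm38). The 250 bases before the RefSeq start of Cd274 (GRCm38.p6, chr19:29367188-29367437, plus strand) and Gzma (chr13:113100982-113101231, minus strand) are shown because both genes were higher in retro-orbital than in kidney tumors and a RefSeq promoter entry was at hand. They read 5′ to 3′, and capitals mark each match to the interferon response core GAAANNGAA or to the Runx motif TGTGGT on either strand.
Cd274: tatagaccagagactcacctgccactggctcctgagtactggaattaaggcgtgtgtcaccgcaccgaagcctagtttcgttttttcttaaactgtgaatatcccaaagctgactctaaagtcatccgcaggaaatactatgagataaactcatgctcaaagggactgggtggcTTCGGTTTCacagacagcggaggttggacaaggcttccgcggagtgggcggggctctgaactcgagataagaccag
Gzma: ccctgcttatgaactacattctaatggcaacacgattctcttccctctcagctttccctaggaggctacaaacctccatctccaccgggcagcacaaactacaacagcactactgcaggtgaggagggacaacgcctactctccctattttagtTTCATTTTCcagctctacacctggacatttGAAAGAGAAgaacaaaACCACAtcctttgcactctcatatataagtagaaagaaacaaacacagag
GAAANNGAA matched at 1 position in the Cd274 window and at 2 positions in the Gzma window, and TGTGGT at 1 position in the Gzma window. Over all 32851 promoter windows of this length, 7.13% held GAAANNGAA and 14.0% held TGTGGT. Of the 25 windows that 22 members had, 3 held GAAANNGAA (Ctla4, Gzma and Cd274) and 8 held TGTGGT, with 2 of these 8 windows belonging to Ncr1. The MiT/TFE E-box CACGTG, present in 6.02% of all windows, was in none of the 25. TGACTCA, the AP-1 motif, was in 4.46% of all windows and in 1 of the 25, that of Gzmb. CCCNNGGGA, the EBF core, was in 5.60% of all windows and in none of the 25. These matches are descriptions of sequence, and no binding was measured.

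**Figure D1:**
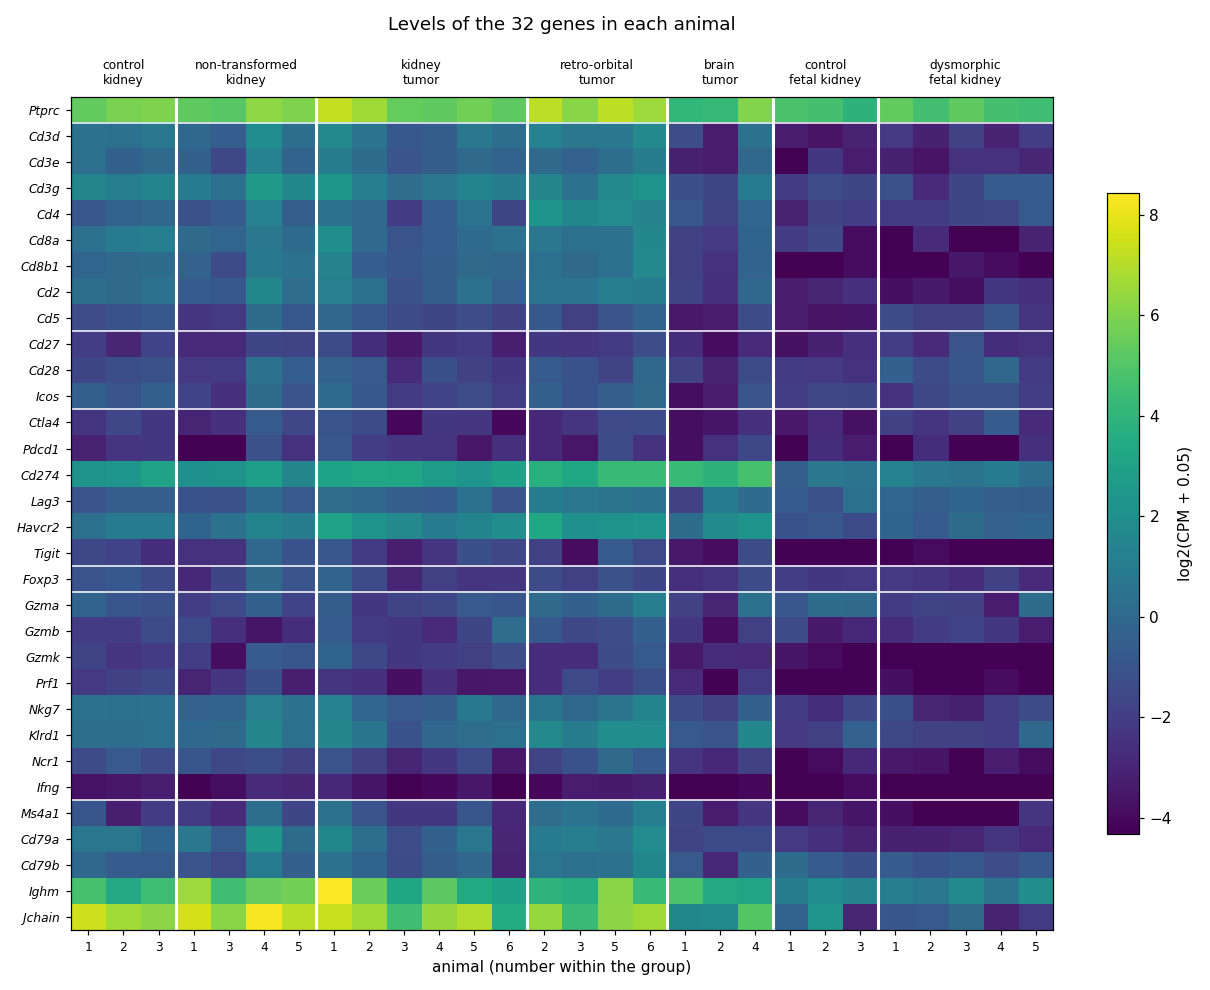
Each cell is the log2(CPM + 0.05) of 1 gene (row) in 1 animal (column), with white lines between the 7 groups and between the roles of the genes. Ighm, Jchain and Ptprc are the brightest rows in the adult kidneys, kidney tumors and retro-orbital tumors, Ptprc and Cd274 in the brain tumors, the columns of the fetal kidneys are dark for most T cell and cytotoxic genes, and Cd274 is brightest in the retro-orbital and brain tumors.

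The level of these genes spanned a wide range. Per kilobase of annotated exon, Jchain and Ighm were the most abundant members in control kidney, at a mean of 46.9 and 10.4 CPM per kilobase, followed by Ptprc (CD45, carried by all leukocytes) at 2.95 and Cd274 at 1.64. Cd3e, a signalling chain of the T cell receptor complex, was at 0.241 CPM per kilobase in control kidney, and Pdcd1 (PD-1) at 0.0637. The summed level of the 32 genes was 188 to 272 CPM in control kidneys, 145 to 490 CPM in non-transformed kidneys, and 82.7 to 717 CPM in kidney tumors. It was 142 to 353 CPM in the retro-orbital group and 55.3 to 159 CPM in the brain group. Every brain tumor was below every control kidney, and the ranges of kidney and retro-orbital tumors overlapped that of control kidneys. In fetal kidneys the sum was 25.0 to 41.1 CPM in controls and 33.0 to 52.7 CPM in dysmorphic kidneys, below every adult animal.

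Ifng, which encodes interferon gamma, was too low to judge in every comparison: it passed the filter on low counts in none, and its highest value in any animal was 0.0985 CPM. In fetal kidneys Cd8b1, Tigit, Gzmk, Prf1, Ncr1 and Ms4a1 were also too low to be tested. Tigit and Prf1 were at the floor of 3 counts per library or below in every fetal kidney of both groups, Gzmk in every dysmorphic fetal kidney and Cd8b1 in every control fetal kidney. The other 25 members could be tested in all 8 comparisons. Most low counts were even numbers, so a count of 2 may be 1 fragment, and the floor covers counting error only.

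The first comparison asked whether kidney tumors differed from control kidneys. None of the 31 members tested was called, whereas 19% of all 23578 genes tested were. At an unadjusted p under 0.05 there were 2, Havcr2 and Prf1, and DESeq2 called these 2, with 30% of all genes called by it. The median log2 fold change of the members tested was 0.02, against 0.05 over all genes tested. Macrophage and microglia markers, a separate list, had 7 of 14 genes called higher, with a median of 1.54, and neutrophil, mast and dendritic cell markers had 6 of 14 called higher, with a median of 1.89.

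Ptprc was at 41.7, 58.2 and 62.3 CPM in the 3 control kidneys and at 38.7 to 152 CPM in the 6 kidney tumors, with a median of 47.4 CPM. The groups overlapped, and the highest value was that of mouse 1. The log2 fold change was 0.36 ± 0.47 (SE), with an edgeR adjusted p of 0.61.

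Cd3e was at 0.722, 1.02 and 1.21 CPM in control kidneys and at 0.470 to 2.08 CPM in kidney tumors, with a median of 0.897 CPM. The control values fell inside the range of the tumors (log2 fold change 0.03 ± 0.46, edgeR adjusted p = 0.97). Cd3d (0.01 ± 0.54) and Cd3g (-0.04 ± 0.44), the other CD3 chains in the list, had fold changes of the same size on the log2 scale, as did Cd2 (-0.07 ± 0.51), a T and NK cell adhesion receptor, and Cd5 (0.02 ± 0.46), a T cell receptor that dampens antigen signalling.

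Cd8a, the CD8 alpha chain, was at 1.21, 1.96 and 2.14 CPM in control kidneys and at 0.448 to 4.09 CPM in kidney tumors, with a median of 1.03 CPM. In 4 of the 6 tumors, those of mice 2, 3, 4 and 5, it was below all 3 controls, while mouse 1 was above all of them. The log2 fold change was -0.32 ± 0.64 and did not pass the test (edgeR adjusted p = 0.75). Cd4 was at 0.508, 0.772 and 0.865 CPM in control kidneys and at 0.192 to 1.40 CPM in tumors, with a median of 0.815 CPM (log2 fold change 0.16 ± 0.63, edgeR adjusted p = 0.88). Its tumor values fell on both sides of the controls.

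Foxp3, the transcription factor of regulatory T cells, was at 0.338, 0.442 and 0.528 CPM in control kidneys and at 0.0800 to 0.794 CPM in kidney tumors, with a median of 0.183 CPM. Of the 6 tumors, that of mouse 1 was above all controls and those of the other mice were below them (log2 fold change -0.62 ± 0.65, edgeR adjusted p = 0.52). Pdcd1 was at 0.0659, 0.144 and 0.158 CPM in controls and at 0.0387 to 0.50 CPM in tumors, with a median of 0.148 CPM (log2 fold change 0.64 ± 0.69, edgeR adjusted p = 0.53). It rested on 4 to 102 counts per mouse.

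Cd274 was at 4.46, 5.13 and 8.21 CPM in control kidneys and at 4.98 to 10.1 CPM in kidney tumors, with a median of 8.06 CPM (log2 fold change 0.36 ± 0.28, edgeR adjusted p = 0.38). The groups overlapped. Havcr2 was at 1.25, 1.81 and 1.83 CPM in controls and at 1.80 to 8.10 CPM in tumors, with 4.03 ± 2.23 CPM (SD, n = 6) as the mean. Its log2 fold change of 1.29 ± 0.47 did not pass edgeR (adjusted p = 0.082, and 0.026 to 0.21 over 18 alternatives). Prf1, which encodes perforin, was lower in all 6 tumors (0.0213 to 0.147 CPM) than in all 3 controls (0.169 to 0.291 CPM), with a log2 fold change of -1.53 ± 0.58 and an edgeR adjusted p of 0.091 (0.045 to 0.28 over 17 alternatives). Every kidney tumor was below every control in 1 of the 31 members tested, and in 3291 of all 23578 genes tested.

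Gzmb, the granule protease granzyme B, was at 0.181, 0.188 and 0.317 CPM in controls and at 0.0947 to 1.13 CPM in tumors, with a median of 0.224 CPM (log2 fold change 0.82 ± 0.78, edgeR adjusted p = 0.48). Mouse 6 had the highest value. Ms4a1, the B cell protein CD20, was at 0.0542, 0.188 and 0.480 CPM in controls and at 0.0899 to 1.29 CPM in tumors, with a median of 0.304 CPM (log2 fold change 0.86 ± 0.94, edgeR adjusted p = 0.53). Ighm, the heavy chain of IgM, was at 10.2, 22.2 and 26.5 CPM in controls and at 7.69 to 344 CPM in tumors, with a median of 24.2 CPM (log2 fold change 1.95 ± 1.31, edgeR adjusted p = 0.31). Its next highest tumor, that of mouse 2, was at 46.6 CPM, so the mean of 76.0 CPM was set by mouse 1.

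In the other lists on lymphocytes, checkpoints and chemokines, 8 of 104 genes tested were called in kidney tumors against controls, all higher. They were Thy1 (log2 fold change 2.09), a surface protein of T cells that fibroblasts and neurons also carry, the B cell genes Pax5 (3.84) and Cd22 (2.37), the costimulatory receptor Tnfrsf9 (5.58), the B7 family member Cd276 (3.94), the myeloid receptor Sirpa (2.09) and the chemokines Ccl3 (1.83) and Cxcl16 (1.26). None of the other 14 NK and cytotoxic genes tested was called. Among members not given in full, the costimulatory receptor genes Cd27 (-0.34 ± 0.64), Cd28 (0.05 ± 0.61) and Icos (-0.60 ± 0.57) and the checkpoint genes Ctla4 (-0.07 ± 1.0), Tigit (0.24 ± 0.65) and Lag3 (0.42 ± 0.38) had log2 fold changes within 2 SE of 0. So did Cd79a (-0.22 ± 0.84), Cd79b (-0.02 ± 0.69) and Jchain (-0.49 ± 0.71) of the B lineage.

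**Figure D2:**
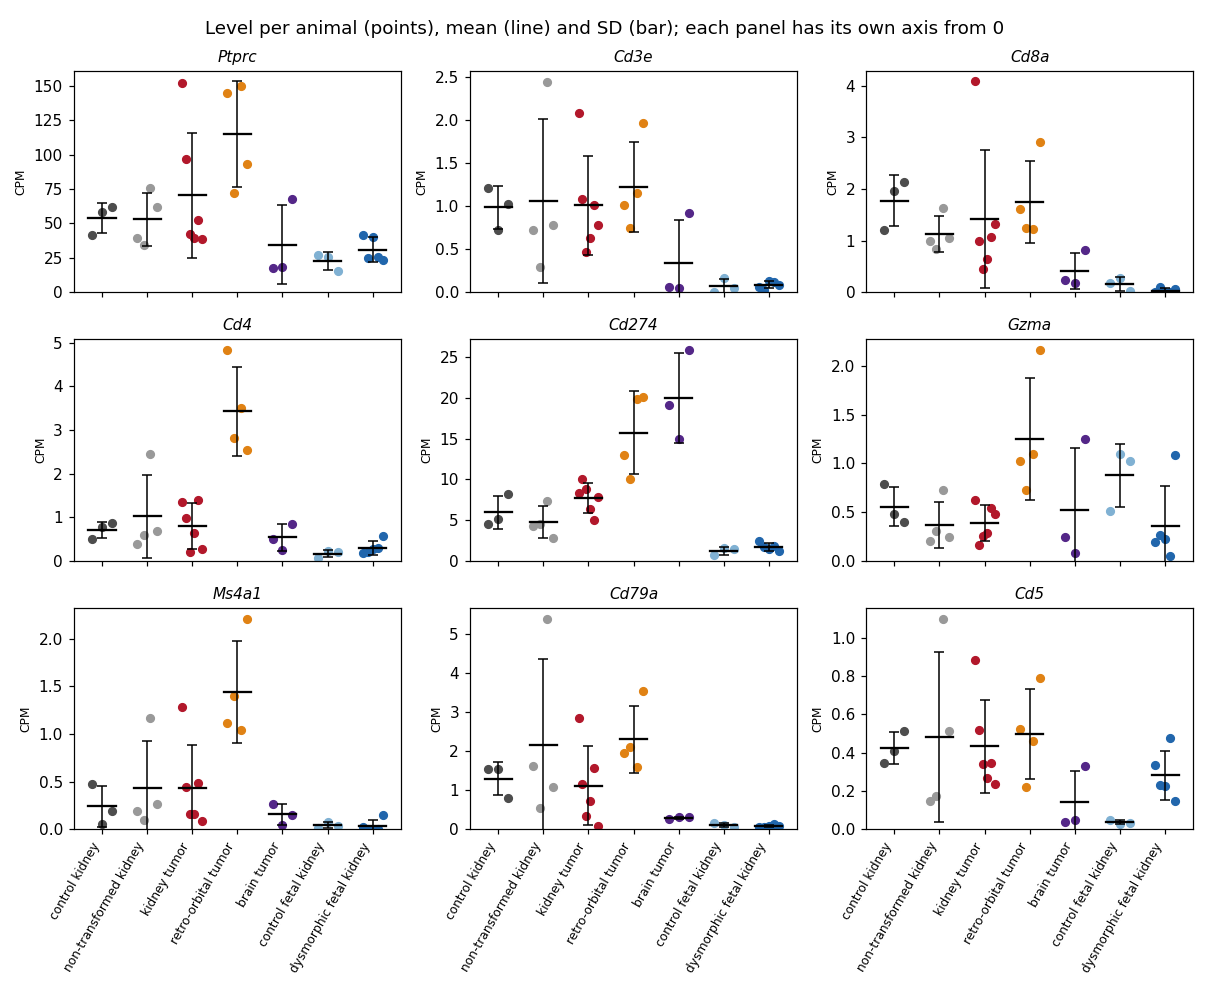
Points are single animals, the line is the group mean and the bar the SD, cut at 0, for 9 genes in CPM, each panel with its own axis. Cd4 in retro-orbital tumors (2.54 to 4.84 CPM) lies above every kidney tumor (0.192 to 1.40 CPM), Cd274 rises from kidney to retro-orbital and brain tumors, and Cd79a in brain tumors (0.261 to 0.313 CPM) lies below every retro-orbital tumor (1.61 to 3.54 CPM).

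Against non-transformed kidney, taken from 4 of the same mice, again none of the 31 members tested was called (17.1% of all genes tested were), with 1, Havcr2, at an unadjusted p under 0.05 and called by DESeq2, which called 27.4% of all genes. With mouse as a block, the count stayed at 0, where 4.12% of all genes were called. In the other lists on lymphocytes, checkpoints and chemokines 8 of 101 genes tested were called, all higher, Tnfrsf9 (log2 fold change 4.08), Cd276 (3.49), Sirpa (2.66), Ccl3 (2.31), Thy1 (2.15), the adhesion protein gene Pvr (1.34), Cxcl16 (1.08) and the TIM-3 ligand gene Lgals9 (0.83). Macrophage and microglia markers had 8 of 14 called higher, with a summed level of 168 to 314 CPM in non-transformed kidneys. Non-transformed kidneys varied widely among themselves: in mouse 4, Cd3e was at 2.44 CPM, Cd4 at 2.45 CPM, Foxp3 at 1.0 CPM and Ms4a1 at 1.17 CPM, while the other 3 were at 0.287 to 0.782, 0.395 to 0.674, 0.0847 to 0.458 and 0.0957 to 0.270 CPM. Ptprc was at 34.5, 39.6, 62.0 and 75.9 CPM, and Cd8a at 0.842, 0.998, 1.05 and 1.64 CPM. Pdcd1 had no count in mice 1 and 3 and was at 0.135 and 0.394 CPM in mice 5 and 4. Gzmb was at 0.0328 to 0.311 CPM, Ighm at 22.6 to 93.3 CPM and Cd274 at 2.75 to 7.38 CPM. Non-transformed against control kidney gave no member either, where 0.00952% of all genes tested were called. The only member at an unadjusted p under 0.05 was Ighm (log2 fold change 1.46 ± 0.49), which DESeq2 called along with 2.35% of all genes.

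The kidney tumors of a mouse differed from each other. In mouse 1, 28 of the 31 members with at least 20 counts were higher in the second tumor, with a median log2 ratio of 0.78 (after adding 0.05 CPM). The widest was Cd8a, at 1.61 CPM in the first tumor and 6.34 CPM in the second, while Ptprc went the other way, at 170 and 129 CPM. In mouse 2, 26 of 31 were higher in the second tumor (median 0.76), with Ctla4 at 0 and 0.653 CPM. In mouse 3, 17 of 24 were higher in the first tumor (median -0.59), and Jchain was at 41.6 CPM in the first and 3.47 CPM in the second. In mouse 4 (22 of 30 higher in the second) and mouse 6 (18 of 24) the medians were 0.60 and 0.19. Each tumor is 1 library, so these differences have no replicate check.

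**Figure D3:**
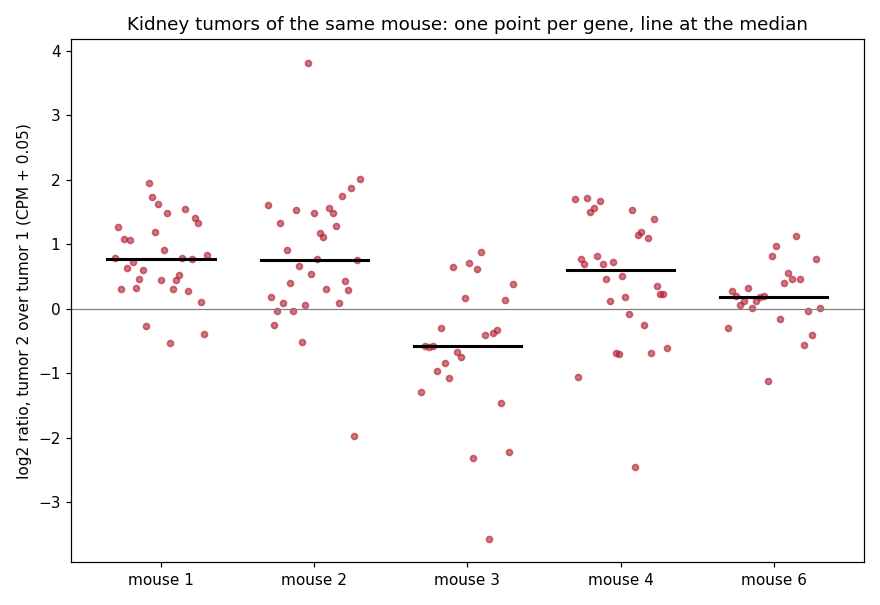
Each point is 1 gene with at least 20 counts in the mouse, plotted as the log2 ratio of its CPM (plus 0.05) in tumor 2 over tumor 1 of the same mouse, for the 5 mice with a pair of kidney tumors, with a line at the median. The medians run from -0.59 in mouse 3 to 0.78 in mouse 1.

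Retro-orbital tumors had 3 members called against kidney tumors, Cd4, Cd274 and Gzma, all higher. Of all 22136 genes tested 17.7% were called, and 8.26% were called higher. The median log2 fold change of the 31 members tested was 0.54 and that of all genes -0.09. With mouse as a block, 4 were called, Cd4, Gzma, Ptprc and Klrd1, while Cd274 was not (adjusted p = 0.114). That fit called 13.1% of all genes.

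Cd4 was at 2.54, 2.82, 3.51 and 4.84 CPM in retro-orbital tumors and at 0.192 to 1.40 CPM in kidney tumors, with a median of 0.815 CPM. Every retro-orbital tumor was above every kidney tumor. The log2 fold change was 2.05 ± 0.55 with an edgeR adjusted p of 0.028, and the adjusted p was 0.00013 to 0.115 over 16 alternatives. The call was lost without mouse 2, 3, 4 or 6, with an adjusted p of 0.0548 to 0.115. Those fits called 8.06%, 7.24%, 14.9% and 7.92% of all genes. The coreceptor of cytotoxic T cells differed less: Cd8a was at 1.23, 1.24, 1.61 and 2.92 CPM, within the range of the kidney tumors (log2 fold change 0.26 ± 0.59, edgeR adjusted p = 0.80), and Cd8b1 had a log2 fold change of 0.66 ± 0.52.

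Cd274 was at 9.98, 12.9, 19.8 and 20.1 CPM in retro-orbital tumors, 15.7 ± 5.06 CPM (SD, n = 4) against 7.73 ± 1.82 CPM (SD, n = 6) in kidney tumors. The lowest retro-orbital tumor, that of mouse 3, was just under the highest kidney tumor, that of mouse 2 at 10.1 CPM. The log2 fold change was 0.997 ± 0.25 (edgeR adjusted p = 0.024, and 0.0014 to 0.114 over 16 alternatives), and the call was lost without mouse 5 (adjusted p = 0.066) or mouse 6 (0.11). Those fits called 15.3% and 7.92% of all genes. Gzma, which encodes granzyme A of cytotoxic and NK cells, was at 0.732, 1.03, 1.09 and 2.16 CPM against 0.158 to 0.622 CPM in kidney tumors, with a median of 0.382 CPM. The groups did not overlap (log2 fold change 1.65 ± 0.44, edgeR adjusted p = 0.029, and 0.0014 to 0.12 over 16 alternatives). Without mouse 2, 3, 4 or 6, and with all groups in a joint fit, its adjusted p was 0.051 to 0.12. The joint fit called 19.7% of all genes.

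Of the other members, some had fold changes above 0 that missed the threshold. Klrd1 (CD94, an NK receptor chain) was at 1.99, 3.20, 3.76 and 3.80 CPM against 0.416 to 2.71 CPM, with a log2 fold change of 1.25 ± 0.45 and an edgeR adjusted p of 0.078. Lag3, a checkpoint receptor that binds MHC class II, was at 1.30, 1.47, 1.63 and 1.96 CPM against 0.464 to 1.21 CPM, without overlap, at 0.92 ± 0.32 and an adjusted p of 0.069. Every retro-orbital tumor was above every kidney tumor in 3 of the 31 members tested, and in 1828 of all 22136 genes tested. Prf1 was at 1.57 ± 0.57 (adjusted p = 0.082) and Ncr1, an activating NK receptor, at 1.41 ± 0.63 (adjusted p = 0.15). Gzmb (0.17 ± 0.67), Gzmk (-0.30 ± 0.63) and Nkg7 (0.44 ± 0.48), other granule genes, did not pass either.

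Ptprc was at 72.1, 93.3, 145 and 150 CPM in retro-orbital tumors against 38.7 to 152 CPM in kidney tumors (0.68 ± 0.43, adjusted p = 0.30). The kidney tumor of mouse 1 was above all of them. Cd3e was at 0.749, 1.01, 1.15 and 1.96 CPM, inside the kidney tumor range (0.23 ± 0.44, adjusted p = 0.75). Foxp3 was at 0.213 to 0.404 CPM (0.07 ± 0.60, adjusted p = 0.95) and Pdcd1 at 0.0340 to 0.331 CPM (-0.45 ± 0.73, adjusted p = 0.71). Gzmb was at 0.289, 0.349, 0.525 and 0.714 CPM. Ms4a1 was at 1.04, 1.11, 1.40 and 2.21 CPM, above the kidney tumors of mice 2 to 6 but not clear of that of mouse 1 at 1.29 CPM (1.68 ± 0.68, adjusted p = 0.12). Ighm was at 12.2, 15.4, 19.3 and 72.3 CPM (-1.39 ± 1.16, adjusted p = 0.44). Without mouse 1, 7 members were called, all higher: Cd274, Cd4, Gzma, Klrd1, Ms4a1, Prf1 and Ptprc, where 19.5% of all genes were called. Without mouse 6 none was, where 7.92% of all genes were called.

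In the other lists on lymphocytes, checkpoints and chemokines, 16 of 103 were called higher in the retro-orbital group and 4 lower. Higher among T cell genes were Thy1 (log2 fold change 1.44) and Tcf7 (0.98), the latter a factor of naive and memory T cells. The NK receptor genes Klrb1c (2.53) and Klrk1 (1.49) and the kinase gene Txk (1.29) were higher too. Of the B cell genes, Fcer2a (CD23, 2.96), Ighd (2.54), the heavy chain of IgD, and Blk (1.73) were called. The homing receptors Ccr7 (2.52) and Cxcr5 (2.54) and the chemokine Cxcl12 (2.46) were higher, and Ccl20 was lower, with no count in any retro-orbital tumor. Among checkpoint and costimulatory genes, Cd276 (2.51) the ectonucleotidase gene Entpd1 (1.10) and the costimulatory receptor gene Cd40 (0.72) were higher, and Nt5e (-3.03) and Tnfrsf9 (-2.97) were lower. In the same comparison 3 of 7 endothelial markers were called higher, summing to 1079 to 1600 CPM against 453 to 879 CPM, with none of the 7 at 0, and 3 of 14 neutrophil, mast and dendritic cell markers were higher, summing to 82.7 to 210 CPM against 46.3 to 96.2 CPM, with none at 0. No macrophage or microglia marker of 14 was called (428.9 to 881 CPM against 241 to 1030 CPM). The part of these cells in the changes of Cd274, Cd4 and Gzma was not tested.

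**Figure D4:**
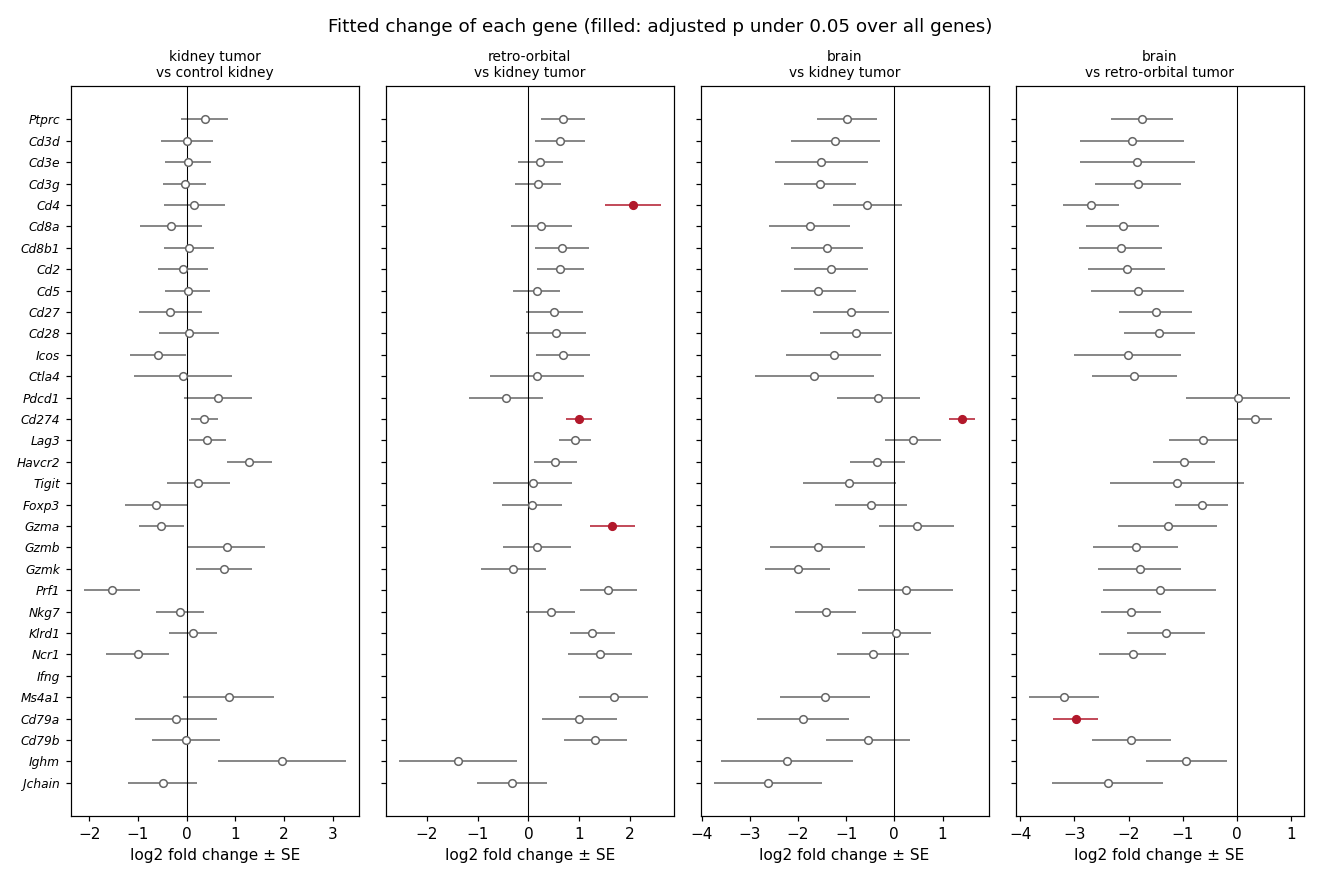
Each point is the fitted log2 fold change of 1 gene with its SE in 4 comparisons, filled where the edgeR adjusted p was under 0.05. Open points scatter around 0 for kidney tumors against control kidneys, and 29 of 31 lie below 0 for brain against retro-orbital tumors, with only Cd79a filled.

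Brain tumors had 1 member called against kidney tumors, Cd274, where 8.74% of all genes tested were called. Cd274 was at 14.9, 19.1 and 25.9 CPM in brain tumors, 19.95 ± 5.55 CPM (SD, n = 3), and every brain tumor was above every kidney tumor. The log2 fold change was 1.41 ± 0.27 (edgeR adjusted p = 0.021, and 2.2e-05 to 0.36 over 16 alternatives). With mouse as a block it was 1.27 with an adjusted p of 0.36, and without mouse 1 or mouse 4 the adjusted p was 0.072 and 0.082. The block called 0% of all genes tested, and the fit without mouse 1 called 2.3%. Without mouse 4, Cd3e and Cd5 were called, both lower, where 6.36% of all genes were called.

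Of the 31 members tested, 26 had a fold change below 0 in brain against kidney tumors, with a median of -1.22 (all genes, 0.03). Red blood cell markers, a separate list, had none of 6 called, with all 6 fold changes below 0 and a median of -1.13, and summed to 153 to 297 CPM in brain tumors against 281 to 1132 CPM in kidney tumors. Their part in the shift of the members was not tested. Cd3e was at 0.0508, 0.0602 and 0.915 CPM in brain tumors (-1.52 ± 0.96, adjusted p = 0.34), and the tumors of mice 1 and 2 rested on 6 counts each. Cd8a was at 0.169, 0.241 and 0.818 CPM (-1.76 ± 0.84, adjusted p = 0.21) and Cd4 at 0.254, 0.501 and 0.856 CPM (-0.56 ± 0.72, adjusted p = 0.66). In each of these genes the brain tumor of mouse 4 was the highest. Ptprc was at 17.4, 18.6 and 67.7 CPM, again with mouse 4 highest (-0.98 ± 0.63, adjusted p = 0.34).

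Foxp3 was at 0.120, 0.144 and 0.331 CPM, Pdcd1 at 0.0201, 0.135 and 0.292 CPM and Gzmb at 0.0169, 0.160 and 0.214 CPM in brain tumors. Gzma was at 0.0762, 0.241 and 1.25 CPM, and Jchain at 2.86, 3.25 and 34.0 CPM. All of these were highest in mouse 4. Cd79b, the other signalling chain of the B cell receptor, was also highest in mouse 4, at 0.740 CPM against 0.541 and 0.0847 CPM. Ms4a1 and Ighm were highest in mouse 1: Ms4a1 was at 0.271 CPM in mouse 1, 0.0508 CPM in mouse 2 and 0.156 CPM in mouse 4, and Ighm was at 28.5, 10.4 and 8.69 CPM. Gzmk, the granzyme of memory-like CD8 T cells, was lower in every brain tumor (0.0401 to 0.102 CPM) than in every kidney tumor (0.160 to 0.809 CPM) and had an edgeR adjusted p of 0.090 (-2.01 ± 0.67). Of all 23391 genes tested, 2105 were lower and 1403 were higher in every brain tumor than in every kidney tumor. Of 102 genes tested in the other lymphocyte, checkpoint and chemokine lists, 4 were called, all lower: Ccl21a (-5.70), Ighg1 (-4.59), Derl3 (-2.32) and Ccl20, which had no count in brain tumors. Of 10 neuron and glia markers, 2 were called higher, and 2 of 7 endothelial markers were called lower, summing to 306 to 1302 CPM in brain tumors. Neutrophil, mast and dendritic cell markers had 2 of 14 called lower, with a summed level of 38.9 to 70.7 CPM in brain tumors against 46.3 to 96.2 CPM in kidney tumors. None of these markers was at 0 in every brain tumor, and their part in the change of Cd274 was not tested.

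Brain against retro-orbital tumors gave 1 member called, Cd79a, the signalling chain of the B cell receptor, where 1.73% of all genes tested were called. It was at 0.261, 0.311 and 0.313 CPM in brain tumors and at 1.61, 1.95, 2.12 and 3.54 CPM in retro-orbital tumors. The groups did not overlap, with a log2 fold change of -2.98 ± 0.41 (edgeR adjusted p = 0.026, and 4.4e-12 to 0.16 over 14 alternatives). Without mouse 2, 3 or 6 the adjusted p was 0.076 to 0.16, where 0%, 0.0532% and 0.0482% of all genes were called.

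In 14 of the 31 members tested every brain tumor was below every retro-orbital tumor, as in 10.4% of all genes tested. The median log2 fold change was -1.83, against 0.04 over all genes. Cd4 was at -2.69 ± 0.52 (edgeR adjusted p = 0.055) and Ms4a1 at -3.20 ± 0.65 (adjusted p = 0.060), both without overlap. Ptprc was at -1.75 ± 0.57 (adjusted p = 0.14) and Cd8a at -2.11 ± 0.68 (adjusted p = 0.14). Only Cd274 (0.33 ± 0.33) and Pdcd1 (0.03 ± 0.97) had a fold change above 0. Without mouse 4, whose brain tumor was the highest in T cell genes, 10 members were called, all lower, where 4.79% of all genes were called. In the other B and plasma cell genes 5 of 22 were called, all lower, among them Ighg2b (-4.77), Pou2af1 (-3.56), Ighd (-3.16) and Derl3 (-2.15). None of the other T cell genes (21 tested) or NK and cytotoxic genes (14 tested) was called. Endothelial markers had 3 of 7 called lower.

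**Figure D5:**
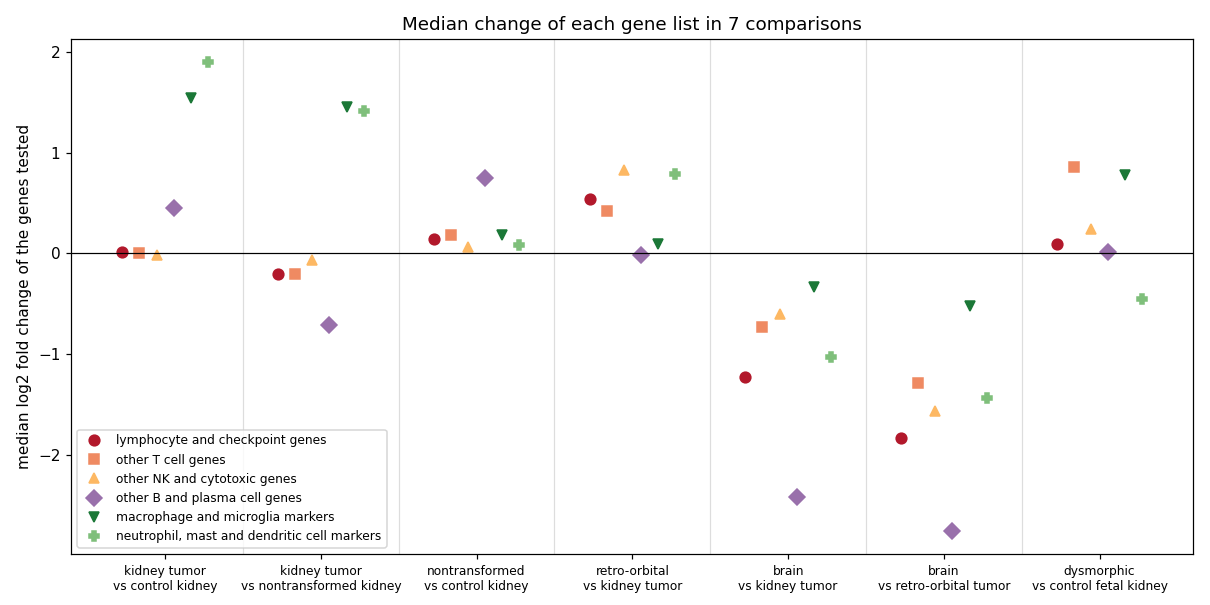
Each symbol is the median log2 fold change of the genes tested in 1 list, for 7 comparisons. In kidney tumors against control kidneys the macrophage (1.54) and neutrophil, mast and dendritic cell (1.89) lists lie well above the lymphocyte and checkpoint genes (0.02), and of the lists plotted the other B and plasma cell genes have the lowest median in both brain tumor comparisons (-2.41 and -2.75).

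In fetal kidneys the question was whether the fusion changed these genes before birth. Of the 25 members tested, 1 was called, Cd5, higher in dysmorphic kidneys, and 2.67% of all genes tested were called. Cd5 (chromosome 19, 10717116 to 10739002, minus strand) was at 0.146, 0.228, 0.230, 0.335 and 0.478 CPM in dysmorphic kidneys and at 0.0305, 0.0327 and 0.0492 CPM in control fetal kidneys. The groups did not overlap, and the control values rested on 4 to 6 counts. The log2 fold change was 2.87 ± 0.51 (edgeR adjusted p = 0.038, and 0.00022 to 0.18 over 16 alternatives), and the call was lost in 6 of the 8 fits that left out a fetus, with adjusted p of 0.079 to 0.18, without dysmorphic kidney 1, 3 or 4 or any of the 3 controls. Those 6 fits called 0% of all genes tested, and the log2 fold change was 2.60 to 3.08 over all 8 fits. The call was kept without dysmorphic kidney 2 or 5, where 5.58% and 5.12% of all genes were called. The call was also lost with the title prefix as a block (adjusted p = 0.051), with sex as a covariate (0.060) and with all groups in a joint fit (0.068). These fits called 1.8%, 0.022% and 1.08% of all genes.

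None of the CD3 chains passed the test. Cd3d had a log2 fold change of 1.53 ± 0.59 (edgeR adjusted p = 0.20), with 4 of 5 dysmorphic kidneys above all controls, and Cd3g one of 0.51 ± 0.59 (adjusted p = 0.67). Cd3e was at 0.0306 to 0.133 CPM in dysmorphic and 0 to 0.160 CPM in control fetal kidneys (0.26 ± 0.97, adjusted p = 0.91), on at most 21 counts in any fetus. Cd8a had no count in 3 of the 5 dysmorphic kidneys and was at 0.0164 to 0.274 CPM in controls (-2.22 ± 1.28, adjusted p = 0.38). Cd4 was at 0.189 to 0.570 CPM and 0.0656 to 0.228 CPM (0.84 ± 0.55, adjusted p = 0.44).

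Ctla4 (2.24 ± 0.74), Cd28 (1.67 ± 0.55) and Havcr2 (0.94 ± 0.30) each had an edgeR adjusted p of 0.14, and DESeq2 called them with Cd5, where it called 12% of all genes. Ctla4 (0.0976 to 0.584 CPM against 0.0245 to 0.0914 CPM) and Havcr2 (0.567 to 1.10 CPM against 0.319 to 0.510 CPM) did not overlap between dysmorphic and control fetal kidneys. Every dysmorphic kidney was above every control in 3 of the 25 members tested, and in 2228 of all 22690 genes tested. Ptprc was at 23.1 to 41.6 CPM in dysmorphic and 15.1 to 27.0 CPM in control fetal kidneys (0.44 ± 0.27, adjusted p = 0.42). Cd274 was at 1.17 to 2.45 and 0.681 to 1.60 CPM (0.43 ± 0.37, adjusted p = 0.56). Ighm was at 1.43 to 4.04 and 2.10 to 3.66 CPM, Foxp3 at 0.0976 to 0.239 and 0.160 to 0.197 CPM, Gzmb at 0.0488 to 0.247 and 0.0457 to 0.328 CPM. Pdcd1 had no count in 3 of 5 dysmorphic kidneys and in 1 of 3 controls, and Ms4a1 had none in 3 of 5 dysmorphic kidneys. From Ptprc to Ms4a1, the groups overlapped in each of these genes.

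Of 14 macrophage and microglia markers, 2 were called higher in dysmorphic fetal kidneys, Mrc1 and Adgre1, with a summed level of 306 to 608 CPM against 188 to 220 CPM. Neutrophil, mast and dendritic cell markers had none of 13 called, with 10 fold changes below 0, 3 above and a median of -0.45, while their sums were 335 to 1578 CPM against 36.4 to 354 CPM and overlapped. Skeletal muscle markers had 6 of 7 called higher, at 2598 to 6072 CPM against 1098 to 1354 CPM. No macrophage or muscle marker was at 0 in every kidney of either group, and 1 of the neutrophil, mast and dendritic cell markers was at 0 in every control. The part of these cells in the change of Cd5 was not tested. Of 89 genes tested in the other lymphocyte, checkpoint and chemokine lists, 1 was called, Nt5e (1.83), higher.

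The change from control to fusion was also compared between the models, adult kidney tumor over control kidney minus dysmorphic over control fetal kidney. Of 31 members tested, 1 was called, Cd5, with a log2 difference of -2.83 ± 0.67 (adjusted p = 0.017 from edgeR, and 0.0019 to 0.065 over 26 alternatives), where 8.94% of all genes tested were called. Its own fold changes were 0.02 in the adult and 2.87 in the fetal model. The median difference over the 31 members was -0.04, and over all genes tested 0.16. The call was lost without control kidney 3 or control fetal kidney 2 (adjusted p = 0.053 and 0.052) and with all groups in a joint fit (0.065). Those fits called 4.08%, 4.66% and 8.14% of all genes. In the other lists 4 of 104 genes tested were called, Tnfrsf9 (4.42) and Cd276 (3.44) with a higher and Cxcl9 (-3.35) and Bcl11b (-3.23) with a lower change in the adult model.

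Ratios of transcripts within an animal describe the balance of these genes and were not tested. Cd8a over Cd4 was 2.38 to 2.54 in control kidneys, 0.671 to 2.52 in non-transformed kidneys, and 0.759 to 4.87 in kidney tumors, while the retro-orbital group was at 0.332 to 1.15 and the brain group at 0.480 to 0.955. Every tumor outside the kidney was below every control kidney. Foxp3 over Cd4 was 0.0716 to 0.115 in retro-orbital tumors, 0.103 to 0.587 in kidney tumors and 0.391 to 0.870 in control kidneys. Cd3e over Ptprc was 0.0124 to 0.0290 in control kidneys, 0.0111 to 0.0201 in kidney tumors and 0 to 0.00624 in control fetal kidneys. The retro-orbital group was at 0.00696 to 0.0210 and the brain group at 0.00273 to 0.0135. Ms4a1 over Cd3e was 0.904 to 1.88 in retro-orbital and 0.115 to 0.620 in kidney tumors, which did not overlap. Gzmb over Cd3e (0.304 to 0.521 and 0.150 to 1.46) and Pdcd1 over Cd3e (0.0455 to 0.288 and 0.0381 to 0.318) overlapped between retro-orbital and kidney tumors. Of the brain tumors only that of mouse 4 had the 20 counts of Cd3e that these last ratios required.

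Several members overlap other genes. Cd274, Cd3e, Cd27, Foxp3, Gzmk and Ms4a1 overlap a gene on the opposite strand in the annotation, Cd274 over 11055 bases with AC119228.1, and Ptprc, Cd3e, Cd27, Ctla4, Icos, Foxp3 and Ifng overlap a gene on the same strand. The strand setting of the counting is not given in the sources used here, so reads of Cd274 and of its antisense partner could not be told apart if strand was ignored.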

How the data were processed

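Total RNA of 36 fixed mouse tissue samples gave stranded libraries, with no depletion of ribosomal RNA. What the authors deposited are raw counts of each gene in each library, not normalized. The submitters' processing notes name FastQC, MultiQC, Bowtie2 and STAR 2.5.2a and builds GRCm38 and mm10, while the counter, its strand setting and the annotation are not given in the sources used here. Identifiers were matched to GENCODE M21 without version (53274 of 53379), and each of the 32 symbols matched 1 gene. Between 79.04% and 84.33% of low counts were even, which counting of both mates of a pair would give, so the counts may overstate the fragments and a fit on halved counts was tried. Libraries of the same animal and tissue were summed.

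For each comparison only its own groups entered the fit, by edgeR 4.0.16 (R 4.3.3) with TMM factors, filterByExpr and the quasi-likelihood test; p was adjusted over all genes tested (Benjamini-Hochberg). The interaction of model and fusion was fitted over 4 groups. Each SE was taken from the F statistic, as the absolute log2 change over its root. Per-kilobase levels used the length of the union of annotated exons. A gene dropped by filterByExpr was too low to judge, and a group at 3 counts per library or fewer in every animal was at the floor. The code was tested on simulated data. Alternatives were RLE and upper quartile factors, DESeq2 1.42.0, no filter and a minimum count of 50, all groups in a joint fit, halved counts, voom (limma 3.58.1) on single libraries with animal as a random effect, sex as a covariate, a block and leaving out each animal.

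The 32 genes were all named. Values in every animal were given for members called and for 10 fixed genes (Ptprc, Cd3e, Cd4, Cd8a, Foxp3, Pdcd1, Cd274, Gzmb, Ms4a1 and Ighm), as a range and median in groups of over 5, and of each other list on lymphocytes, checkpoints and chemokines the called genes with the largest changes were named. Some of these are not reported here. Members, lists and tests were chosen with earlier results of these data known. Other values, such as those of Havcr2, Prf1, Klrd1, Lag3, Gzmk and Jchain, were picked after seeing them. Separate mice or fetuses were the replicates. Tissues with the same number came from the same mouse, which pairs them. Deviations from group means correlated between kidney tumor and the other tissue of a mouse at 0.253 to 0.325 for retro-orbital tumors, -0.0447 to 0.163 for non-transformed kidney and -0.075 to -0.0572 for brain tumors. Fetal block labels were the prefix of the sample titles. Where nothing says that samples of a group were prepared separately, p-values measure the spread between these animals.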

Additional observations from a re-analysis of the deposited data

Results flagged for a closer look

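In 52 levels of the genes given in full, each in a group of 4 to 6 animals, 11 had an animal set apart from the rest by Dixon's criterion, where chance would flag about 1 in 20. In kidney tumors mouse 1 was the high value for Cd8a (4.09 CPM), Pdcd1 (0.50 CPM), Foxp3 (0.794 CPM), Ms4a1 (1.29 CPM) and Ighm (344 CPM). In non-transformed kidney mouse 4 was the high value for Cd4 (2.45 CPM) and Ms4a1 (1.17 CPM). In retro-orbital tumors mouse 5 was high for Ighm (72.3 CPM). Dysmorphic fetal kidney 5 was high for Cd4 (0.570 CPM), Gzma (1.08 CPM) and Ms4a1 (0.146 CPM). Of the 11, 5 were in the kidney tumor of mouse 1 and 3 in dysmorphic fetal kidney 5.

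The change of Cd5 from control to fusion group differed between the adult and the fetal model by -2.83 on the log2 scale in the interaction term, as reported above. The models also differed in Cre driver, age and tissue, which cannot be told apart here.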

How the results depend on the processing

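The number of lymphocyte and checkpoint genes called depended on the processing in all 8 comparisons. DESeq2 called 2 in kidney tumors against control kidneys, 1 against non-transformed kidney, 1 in non-transformed against control kidney, 7 in retro-orbital and 3 in brain against kidney tumors, 10 in brain against retro-orbital tumors, 4 in dysmorphic fetal kidneys and 2 in the difference between models. Of all genes it called 30%, 27.4%, 2.35%, 27%, 21.8%, 14.6%, 12% and 15.2% in the same order. Voom on single libraries called 1 in kidney tumors against controls and 10 in retro-orbital tumors, with 35.4% and 26.5% of all genes. All groups in a joint fit called 1 in kidney tumors against non-transformed kidney, 4 in brain against retro-orbital tumors, 0 in fetal kidneys and 0 in the difference between models. Of all genes it called 19.3%, 15.1%, 1.08% and 8.14% in these comparisons. The stricter filter called 3 and halved counts 3 in brain against retro-orbital tumors, and the stricter filter 0 in fetal kidneys, with 3.36%, 2.64% and 4.2% of all genes. Sex as a covariate called 7 in retro-orbital tumors, 0 in fetal kidneys and 2 in the difference, with 18.9%, 0.022% and 10.4% of all genes. The replicate block by mouse called 0 in kidney tumors against non-transformed kidney, 4 in retro-orbital and 0 in brain against kidney tumors, and the block by title prefix called 0 in fetal kidneys. Of all genes these blocks called 4.12%, 13.1%, 0% and 1.8% in the same order. RLE and upper quartile factors and no filter kept each count within 1.5 times.

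Leaving out 1 animal gave 0 to 1 in kidney tumors against controls (1 without mouse 4) and 0 to 0 against non-transformed kidney and in non-transformed against control kidney. Of all genes, those fits called 4.78% to 25.1% (20.9% without mouse 4), 5.59% to 17% and 0% to 0.0462%. In retro-orbital against kidney tumors leaving out 1 animal gave 0 to 7 (7 without mouse 1, 1 without mouse 2, 3 or 4, 0 without mouse 6), and in brain against kidney tumors 0 to 2 (0 without mouse 1, 2 without mouse 4, where Cd274 was lost). Of all genes, 19.5%, 8.06%, 7.24%, 14.9% and 7.92% were called in the retro-orbital fits, in the order given. In the brain fits 2.3% and 6.36% were called. In brain against retro-orbital tumors leaving out 1 animal gave 0 to 10 (10 without mouse 4, 2 without mouse 1, 0 without mouse 2, 3 or 6). These fits called 4.79%, 5.97%, 0%, 0.0532% and 0.0482% of all genes, in the order given. In fetal kidneys leaving out 1 animal gave 0 to 2 (2 without dysmorphic kidney 5, 0 without dysmorphic kidney 1, 3 or 4 or any control) and in the difference between models 0 to 2 (2 without mouse 1 or control fetal kidney 3, 0 without control kidney 3 or control fetal kidney 2). The fetal fit without dysmorphic kidney 5 called 5.12% of all genes, and each fetal fit with 0 members called 0% of all genes. In the difference 10.2%, 4.72%, 4.08% and 4.66% were called, in the order given. The cause of these shifts in counts was not tested. In kidney tumors against controls the sign of some uncalled log2 fold changes turned. With sex as a covariate Ptprc was at -0.020, Cd3e at -0.43, Cd4 at -0.48 and Ms4a1 at -0.19, and under voom Cd3e was at -0.11 and Cd4 at -0.19. Leaving out 1 animal moved Cd3e over -0.30 to 0.19 and Cd4 over -0.049 to 0.36. The other fixed genes kept their sign when 1 animal was left out, but their size moved. Cd8a ran over -0.98 to -0.14, Foxp3 over -1.25 to -0.43, Pdcd1 over 0.12 to 0.89 and Cd274 over 0.19 to 0.69. Gzmb ran over 0.18 to 1.14, Ms4a1 over 0.15 to 1.83, Ighm over 0.19 to 2.22 and Ptprc over 0.0023 to 0.50. Cd3e was at -0.30 without mouse 1 and -0.14 without control kidney 2. Cd4 was at -0.031 without mouse 1, -0.049 without mouse 5 and -0.039 without control kidney 1. Voom was not run in fetal kidneys or in brain against retro-orbital tumors, where fewer than 2 animals had more than 1 library, and no block was possible in brain against retro-orbital tumors because those groups share 1 mouse, or against control kidneys, which come from other mice. Ifng and the fetal T cell genes rest on few counts, which limits what can be said of them.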
